A study of Mus musculus with 12 samples.

Results

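Cathepsins are the main protein-digesting enzymes of the lysosome, and the Ctla2 proteins are small inhibitors of some of them. The genes described here are the 8 cathepsin genes Ctsa, Ctsb, Ctsc, Ctsd, Ctsh, Ctsl, Ctss and Ctsz together with Ctla2a and Ctla2b, found by gene symbol as 10 of the 14541 genes listed for the whole series. Ctla2a and Ctla2b were chosen by their higher measured level with Hevin than with Media, so their Hevin values are given as a description with no test. The other 8 were chosen as members of the family.

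The cells were wild-type mouse microglia, the resident macrophages of the brain, pulled from forebrains of P7-P9 pups with magnetic beads that bind the surface protein CD11b and kept in culture for 6 h. In the Hevin group they received 500 nM recombinant Hevin, an astrocyte-secreted matricellular protein. In the LPS group they received 50 ng/mL lipopolysaccharide, a component of bacterial outer membranes, and in the Media group growth medium alone. Each group had 4 libraries, numbered 1 to 4. No label ties a library to an animal or culture, so a p-value measures only the spread among these libraries. Part of that spread may be technical. Levels of neutrophil and endothelial genes, given below, differed between the numbers in the same way in all 3 groups.

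Cathepsins are made as inactive precursors that are sorted to the lysosome and cut there into active enzymes. Ctsb, Ctsc, Ctsh, Ctsl, Ctss and Ctsz are cysteine proteases, Ctsd is an aspartic protease and Ctsa is a serine carboxypeptidase. Macrophages use them to break down engulfed material, and Ctss also trims the invariant chain of MHC class II molecules. Ctla2a and Ctla2b resemble the propeptide that keeps cysteine cathepsins inactive, and were first found in activated mouse T lymphocytes and mast cells. The Ctla2a protein inhibits cathepsin L in the test tube.

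The Ctla2 genes are near copies of each other, which bears on how far their reads can be told apart, so their sequences are shown first. On GRCm38 with GENCODE M21, Ctla2a lies at chr13:60934155-60936625 and Ctla2b at chr13:60895350-60897447, both on the minus strand and 36.7 kb apart. Ctsl, which encodes a target of the Ctla2a protein, is on the same chromosome and strand at chr13:64359337-64370890, 3423 kb from Ctla2a. The windows shown run from 250 bases before to 50 bases after a RefSeq start (GRCm38.p6, minus strand). They are at chr13:60936576-60936875 for Ctla2a and chr13:60897398-60897697 for Ctla2b. RefSeq gives Ctla2a a further window, chr13:60936517-60936816. The Ctla2a window shown was picked by its alignment score with Ctla2b, so their identity is that of the more alike pair. The windows are printed 5′ to 3′, and capitals mark the bases that differ or have no partner in the other window.
Ctla2a promoter: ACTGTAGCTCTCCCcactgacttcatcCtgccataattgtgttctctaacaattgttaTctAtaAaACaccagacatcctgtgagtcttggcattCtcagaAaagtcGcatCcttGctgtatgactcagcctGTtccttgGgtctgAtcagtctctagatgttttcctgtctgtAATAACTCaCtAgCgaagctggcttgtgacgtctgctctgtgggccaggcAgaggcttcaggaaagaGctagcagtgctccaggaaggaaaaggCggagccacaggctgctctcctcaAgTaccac
Ctla2b promoter: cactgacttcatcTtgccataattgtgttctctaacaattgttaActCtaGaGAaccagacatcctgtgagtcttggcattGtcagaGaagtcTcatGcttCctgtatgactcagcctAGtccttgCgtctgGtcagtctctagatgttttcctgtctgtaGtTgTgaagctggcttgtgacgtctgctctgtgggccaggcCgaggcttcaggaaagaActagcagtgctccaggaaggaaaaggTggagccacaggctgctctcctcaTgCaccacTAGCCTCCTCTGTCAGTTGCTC
Over 286 aligned columns, 255 bases were identical (89.2%), 23 were substituted and 8 were gaps. The coding sequences, 411 bases in Ctla2a and 339 in Ctla2b, were identical at 79.3% of 411 aligned columns, of which 72 were gaps. Their longest shared stretch, 85 bases, ends both coding sequences. It is coding bases 327 to 411 of Ctla2a (chr13:60935023-60935408, spliced) and 255 to 339 of Ctla2b (chr13:60895714-60896099, spliced).
Shared coding end: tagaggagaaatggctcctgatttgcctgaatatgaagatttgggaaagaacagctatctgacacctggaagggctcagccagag

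The shared coding stretch is shorter than a full 100-base read, and most of each promoter window lies before the start. The rule the authors used for shared reads is not given in the sources used here. Of all 100-base windows of the annotated protein-coding transcripts, 19.5% in Ctla2a and 84.9% in Ctla2b also occur in another annotated gene. For Ctla2a the other genes are Gm49391 and Kcnq1ot1 and do not include Ctla2b. For Ctla2b they include Ctla2a, but are mainly the gene models Gm49391 and Gm49392. These models overlap 60.1% and 22.6% of the exon bases of Ctla2b on the same strand. Neither model is in the table, so levels of Ctla2b, and to a smaller extent of Ctla2a, are uncertain in size. Ctsd has such windows too, at 33.4%, and shares 34.4% of its exon bases with the same-strand model Gm49369. Ctsl stands at 4.68%, and the remaining 6 cathepsins have none.

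Levels are FPKM, reads relative to gene length and library size. The library sizes behind them, worked out from the FPKM steps, were not proportional to the reads in the listed genes. Their ratios to those reads are called the authors' scaling factors here, and how they arose is not given in the sources used. Recovered whole reads in the listed genes numbered between 18343996 and 27361665 per library. All 8 microglia marker genes were present in each library. Their summed level was between 979 and 1454 FPKM in Hevin, 446 and 693 FPKM in LPS, and 534 and 771 FPKM in Media, and 4 of 8 rose in Hevin and 2 fell in LPS by limma, against 7.37% and 25.8% of all genes called in these contrasts. With the replicate number as a block, 6 rose in Hevin, and in LPS 1 rose and 3 fell, against 21.4% and 43.7% of all genes. The summed level of 7 border macrophage markers was between 607 and 820 FPKM in Hevin, 701 and 865 FPKM in LPS, and 819 and 955 FPKM in Media. It thus lay above the sum of the microglia markers in LPS and Media and below it in Hevin. Libraries of number 2 stood apart by 9 monocyte and neutrophil genes, whose sum was 1923 FPKM in Hevin, 2087 in LPS and 2056 in Media, against 41.3 to 107 in the other numbers. Each count of called cathepsins was the same with the 3 libraries of number 2 left out.

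Ctla2a was high in every Hevin library. Its level was 51.9, 52.3, 60.6 and 60.5 FPKM in Hevin libraries 1 to 4. It was 3.67, 9.06, 22.1 and 10.6 FPKM in LPS and 5.61, 11.5, 19.5 and 15.2 FPKM in Media. The Hevin libraries did not overlap with those of LPS or Media, which overlapped each other. Over all genes tested, Hevin lay wholly above Media in 9.05% and wholly above LPS in 20%. Both Ctla2 genes were chosen by their Hevin level, so their separation from the other groups is a description and no test. The values rest on 1675 to 2678 recovered reads in Hevin, 105 to 754 in LPS and 207 to 741 in Media.

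Ctla2b, the paralogue, was also high in every Hevin library, and it was low in LPS. It stood at 108, 100.2, 117 and 124 FPKM in Hevin libraries 1 to 4, at 8.72, 6.67, 10.3 and 9.02 FPKM in LPS, and at 15.8, 19.5, 25.5 and 23.7 FPKM in Media. The 3 groups did not overlap at all, with Hevin highest and LPS lowest. LPS lay wholly below Media in 12.3% of all genes tested, and the shares for Hevin are those given for Ctla2a. Recovered reads numbered 2642 to 4251 in Hevin, 161 to 289 in LPS and 434 to 796 in Media. By mean level among all listed genes, Ctla2b held rank 397 in Hevin, 5810 in LPS and 3170 in Media, and Ctla2a held rank 1021 in Hevin, 5034 in LPS and 4602 in Media.

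The Ctla2 difference between Hevin and Media was steadier as an amount than as a ratio. Within numbers 1 to 4, Ctla2a was 9.26, 4.53, 3.10 and 3.98 times as high in Hevin as in Media, while the differences in level, Hevin minus Media, were 46.3, 40.7, 41.0 and 45.3 FPKM. Ctla2b was 6.83, 5.13, 4.58 and 5.22 times as high, with differences of 92.4, 80.7, 91.4 and 99.9 FPKM. The ratios were largest in number 1 for both genes, where the Media level was lowest. The ratio of group means, Hevin over Media, was 4.34 for Ctla2a and 5.31 for Ctla2b.

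In LPS against Media, where 25.8% of all genes tested were called and which shares the Media libraries with the contrast that picked the genes, Ctla2b fell and Ctla2a did not pass the test. Ctla2b averaged 8.68 ± 1.505 FPKM in LPS and 21.1 ± 4.32 FPKM in Media (SD, n = 4 each), with LPS lower in all 4 numbers. Its log2 fold change on the log2(FPKM + 1) scale, which understates changes of low genes, was -1.19 ± 0.15 (SE; limma adjusted p = 1.63e-04). Ctla2a averaged 11.4 ± 7.76 FPKM in LPS and 12.97 ± 5.90 FPKM in Media (SD, n = 4 each), with a log2 fold change of -0.28 ± 0.42 (limma adjusted p = 0.684). Without LPS library 1 the estimate for Ctla2a changed sign to 0.11. Whether the paralogues differ in their LPS change was not tested.

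The level of Ctla2a followed the library number. In each group its order was number 1 lowest, then 2, 4 and 3. In Hevin numbers 1 and 2 were nearly equal, as were 3 and 4. The summed level of 10 endothelial marker genes, all above 0 in every library, had that order too, at 35.2, 90.2, 179 and 127 FPKM in Hevin libraries 1 to 4, 32.3, 80.6, 193 and 113 in LPS, and 33.0, 95.4, 176 and 123 in Media. The endothelial sums were alike in the 3 groups, and 0 of 10 endothelial genes passed the limma test in either treatment against Media, nor any at an unadjusted p under 0.05. Of all genes 7.37% were called in Hevin and 25.8% in LPS. The SEs of the endothelial genes in the fit without the block were wide, at 0.38 to 0.73 log2 units, so it could miss changes. With the block 1 was higher and 1 lower in Hevin, and 0 changed in LPS, against 21.4% and 43.7% of all genes. Pecam1 was higher, at 22.1 FPKM in Hevin and 12.9 FPKM in Media (limma adjusted p = 8.42e-05 with the block). Emcn was lower, at 3.69 FPKM in Hevin and 6.22 FPKM in Media (limma adjusted p = 0.00502 with the block). Of markers of the cells in which the Ctla2 genes were found, 10 of 12 lymphocyte genes and 5 of 6 mast cell genes were not among the listed genes. The sum of the 2 lymphocyte genes left did not have the order of Ctla2a. It was 3.48, 4.06, 2.65 and 2.88 FPKM in Hevin libraries 1 to 4, 2.21, 3.15, 1.93 and 2.83 in LPS, and 2.73, 3.51, 3.12 and 2.77 in Media. The 1 mast cell gene left was Kit. Kit had the order of Ctla2a in each group too, at 1.33, 3.22, 8.38 and 4.93 FPKM in Hevin libraries 1 to 4, 1.87, 4.33, 15.1 and 8.75 FPKM in LPS, and 1.29, 4.96, 11.3 and 7.85 FPKM in Media. The order was not particular to these genes. Sums of 6 neuron markers had it in LPS (2.67, 3.27, 20.5 and 8.86 FPKM) and Media (2.44, 6.28, 14.5 and 7.09 FPKM). In Hevin, at 2.47, 8.02, 16.4 and 6.22 FPKM, they were lowest in number 1 and highest in number 3. Sums of astrocyte, oligodendrocyte and border macrophage markers did not have the order in any group. The part of these marker genes in the Ctla2a levels was not tested. In bulk RNA, fewer cells of a type and less RNA per cell cannot be told apart.

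**Figure D1:**
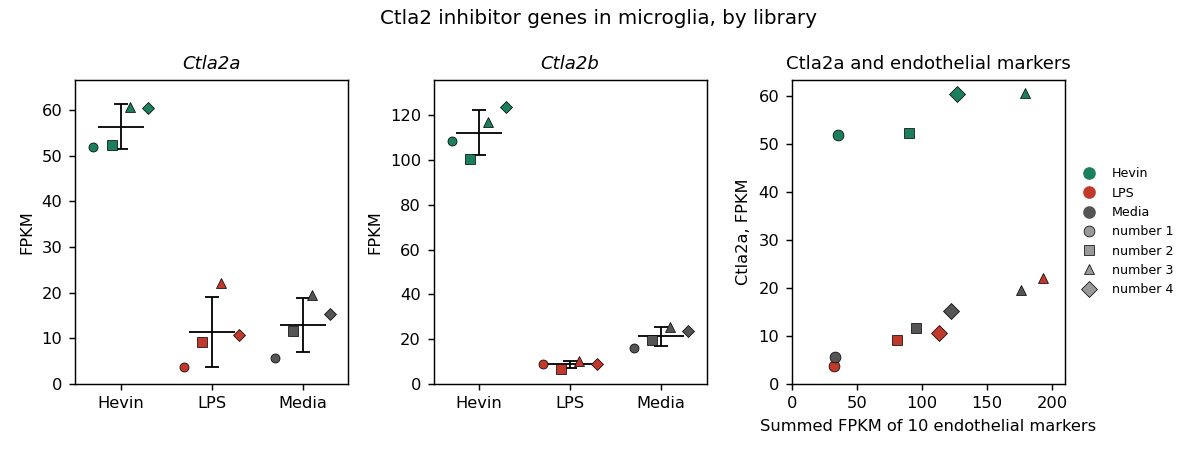
Levels of Ctla2a and Ctla2b in FPKM for the 12 libraries by group (bars: mean, whiskers: SD, n = 4), and Ctla2a against the summed FPKM of 10 endothelial marker genes. Hevin libraries lie at 51.9 FPKM or more for Ctla2a, a gene chosen by its higher level with Hevin. The part of the endothelial genes in its level was not tested.

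The aspartic protease gene Ctsd was the most abundant cathepsin in Hevin and Media, while in LPS its mean was slightly below that of Ctsb, by less than the spread between libraries. Ctsd (chr7:142375911-142388038, minus strand) was 3525, 3490, 2806 and 3130 FPKM in Hevin libraries 1 to 4, 2246, 1634, 1342 and 1627 FPKM in LPS, and 2616, 2495, 1957 and 2156 FPKM in Media. Hevin lay above Media and LPS with no overlap, and LPS overlapped Media. Its mean held rank 4 of all listed genes in Hevin, 23 in LPS and 6 in Media.

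Without the replicate number as a block, neither treatment passed the test for Ctsd against Media, although every number gave the same order. Hevin was 1.35 to 1.45 times as high as Media within numbers, with a log2 fold change of 0.49 ± 0.15 (limma adjusted p = 0.0783). LPS was 0.655 to 0.859 times Media within numbers, with a log2 fold change of -0.45 ± 0.15 (limma adjusted p = 0.0506). The numbers pair the libraries, and with the replicate number as a block both passed, at limma adjusted p = 0.00154 for Hevin and 0.00124 for LPS. In all, 6 of 25 alternatives called the rise in Hevin and 9 called the fall in LPS. Leaving out LPS library 1 called both, at limma adjusted p = 0.0306 for Hevin and 0.00813 for LPS, and leaving out Media library 3 called the fall in LPS (limma adjusted p = 0.0421). The size of the LPS change depended on scaling, at -1.24 with quantile normalization and -0.77 without the authors' scaling factors.

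The direct contrast of Hevin with LPS uses the same Hevin and LPS libraries, so it adds no independent evidence to either contrast with Media. In it Ctsd was higher in Hevin, at 3238 ± 339 FPKM against 1712 ± 381 FPKM in LPS (SD, n = 4 each; log2 fold change 0.94 ± 0.15, limma adjusted p = 4.89e-04). As a share of the summed cathepsin level, Ctsd made up 41.9% in Hevin, 25.8% in LPS and 35.9% in Media. The ratio of Ctsd to Ctsb averaged 1.91 in Hevin, 0.974 in LPS and 1.49 in Media.

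Without the replicate number as a block, 7.37% of all genes tested were called in Hevin against Media, and 4.27% were called higher. In that fit Ctsh, an aminopeptidase that can also cut within proteins, was the 1 of 8 cathepsins that rose. Its level (chr9:90054152-90076089, plus strand) was 28.9, 34.0, 27.2 and 29.2 FPKM in Hevin libraries 1 to 4, 15.1, 19.7, 16.2 and 17.9 FPKM in LPS, and 15.9, 22.7, 19.1 and 15.9 FPKM in Media. Every Hevin library was above every library of the other groups, which overlapped. The log2 fold change of Hevin over Media was 0.68 ± 0.12 (limma adjusted p = 0.00559), and Hevin was 1.43 to 1.84 times Media within numbers. LPS against Media gave -0.08 ± 0.12 (limma adjusted p = 0.688). Ctsh had the lowest level of the 8 cathepsins in each group. With the block Ctsd and Ctss rose in Hevin against Media as well, where 21.4% of all genes were called.

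Ctss, which stays active outside the acidic lysosome, also had its highest mean in Hevin, without passing the test. The gene (chr3:95526786-95556403, plus strand) was at 612, 586, 506 and 529 FPKM in Hevin libraries 1 to 4, 626, 499, 446 and 543 FPKM in LPS, and 490.3, 486, 412 and 400.1 FPKM in Media. Hevin and Media did not overlap, while LPS overlapped both. Hevin was below LPS in 2 of 4 numbers, and that contrast gave 0.09 ± 0.12 (limma adjusted p = 0.597). The log2 fold change was 0.32 ± 0.12 for Hevin over Media (limma adjusted p = 0.131) and 0.24 ± 0.12 for LPS over Media (limma adjusted p = 0.163). With the replicate number as a block both passed, at limma adjusted p = 0.00945 for Hevin and 0.0219 for LPS. The direction in LPS depends on scaling: it was -0.32 under quantile normalization, which called it lower (limma adjusted p = 0.0481), and -0.092 without the authors' scaling factors.

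Over all genes tested, 9.05% had Hevin libraries wholly above Media, and among the 8 cathepsins these were Ctsd, Ctsh and Ctss. With the block 3 of 8 cathepsins were called in Hevin against Media, against 21.4% of all genes. The median log2 fold change of the 8 was 0.12, against 0.00 over all genes tested.

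Ctsc, which activates the granule serine proteases of immune cells by trimming them, rose in LPS. The gene (chr7:88278085-88310888, plus strand) was at 189, 141, 159.6 and 163 FPKM in Hevin libraries 1 to 4, 339, 266, 319 and 411 FPKM in LPS, and 169.7, 145, 166 and 166 FPKM in Media. The LPS libraries lay above all others, and Hevin and Media overlapped. The log2 fold change of LPS over Media was 1.03 ± 0.13 (limma adjusted p = 1.41e-04), and LPS was 1.83 to 2.47 times Media within numbers. Hevin against Media gave 0.01 ± 0.13 (limma adjusted p = 0.987), and its sign changed when Hevin library 1 or Media library 2 was left out.

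Ctsz, a carboxypeptidase, rose in LPS as well, but the direction depends on scaling. The gene (chr2:174427493-174439039, minus strand) was at 880.1, 762, 787 and 869.8 FPKM in Hevin libraries 1 to 4, 1217, 1036, 962 and 1101 FPKM in LPS, and 831, 754, 732 and 736 FPKM in Media. LPS libraries were above all Hevin and Media libraries. The log2 fold change of LPS over Media was 0.50 ± 0.09 (limma adjusted p = 0.00208), but it was -0.30 under quantile normalization (limma adjusted p = 0.0585) and 0.17 without the authors' scaling factors (limma adjusted p = 0.0795). Without those factors the median of all genes also moved to -0.29, and Ctsz stood 0.46 above that median.

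Ctsc and Ctsz were the 2 of 8 cathepsins called in LPS against Media, where 25.8% of all genes tested were called. The share of genes with LPS wholly above Media was 13.3%, and with LPS wholly below it 12.3%. With the block 4 of 8 were called, 3 higher and 1 lower, against 43.7% of all genes. The median log2 fold change of the 8 was 0.10, against -0.02 over all genes. Between Hevin and LPS 4 of 8 were called, against 41.7% of all genes: Ctsd and Ctsh were higher in Hevin, and Ctsc and Ctsz were lower. None of the 4 overlapped between these groups, where Hevin lay wholly above LPS in 20% of all genes and wholly below it in 17.5%. For Ctsz that contrast was -0.38 ± 0.09 (limma adjusted p = 0.00550), but 0.57 under quantile normalization (limma adjusted p = 0.00110).

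Ctsb, Ctsl and Ctsa passed the test in neither treatment on the authors' scaling. Ctsb, a protease that also removes dipeptides from the ends of proteins (chr14:63122462-63145923, plus strand), averaged 1692 ± 58.9 FPKM in Hevin, 1745 ± 245 FPKM in LPS and 1544 ± 55.9 FPKM in Media (SD, n = 4 each), and Hevin was 1.08 to 1.12 times Media in all 4 numbers. Ctsl, which encodes the endopeptidase that the Ctla2a protein inhibits, averaged 957 ± 62.8 FPKM in Hevin, 928 ± 159 FPKM in LPS and 900.5 ± 33.2 FPKM in Media. Ctsa, which protects neuraminidase and beta-galactosidase in a lysosomal complex (chr2:164832873-164841032, plus strand), averaged 252.8 ± 18.4 FPKM in Hevin, 245 ± 43.0 FPKM in LPS and 260.1 ± 23.3 FPKM in Media. Their log2 fold changes of Hevin over Media were 0.13 for Ctsb, 0.09 for Ctsl and -0.04 for Ctsa. Those of LPS over Media were 0.17 for Ctsb, 0.03 for Ctsl and -0.10 for Ctsa. Under quantile normalization all 3 were called lower in LPS, Ctsb at -0.51 (limma adjusted p = 0.0399), Ctsl at -0.72 (limma adjusted p = 2.99e-04) and Ctsa at -0.56 (limma adjusted p = 0.00311). Without the authors' scaling factors Ctsl was called at -0.30 (limma adjusted p = 0.0237) and Ctsa at -0.43 (limma adjusted p = 0.00390), while Ctsb stood at -0.16 (limma adjusted p = 0.109). With limma-voom and the block Ctsb was called higher in LPS (0.17, limma adjusted p = 0.0385).

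**Figure D2:**
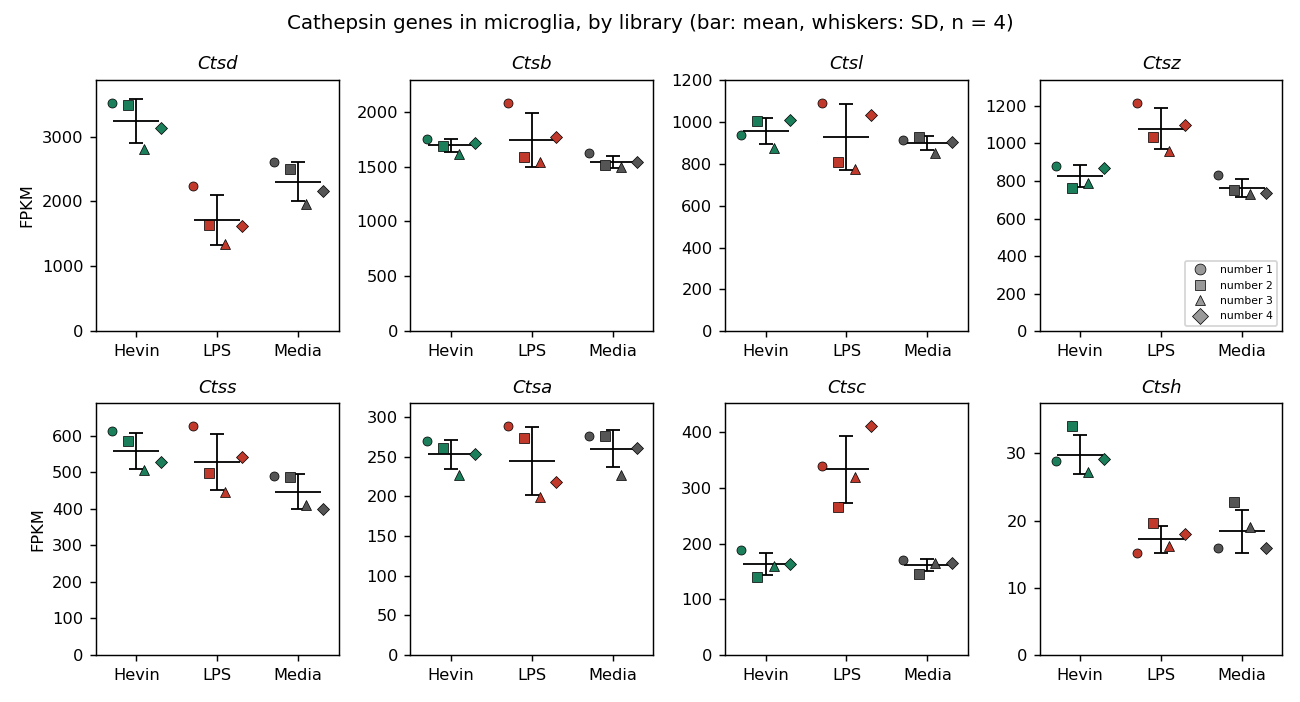
Level of each of the 8 cathepsin genes in FPKM for the 12 libraries by group, with the mean as a bar and the SD as whiskers (n = 4). Hevin libraries are highest for Ctsd and Ctsh, and LPS libraries are highest for Ctsc and, on the authors' scaling, for Ctsz (reversed under quantile normalization).

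Cathepsin levels also moved with the library number within each group. Of the 8 genes, 6 were lowest in library 3 in Hevin, 6 in LPS and 5 in Media, and 6 were highest in library 1 in Hevin, 6 in LPS and 5 in Media. The summed microglia markers were also highest in library 1 and lowest in library 3 of each group. The part of that order in the cathepsin levels was not tested. In LPS Ctsb ran between 1545 and 2083 FPKM and Ctsl between 777 and 1093 FPKM. Summed over the 8 genes, the level was 7716 ± 517 FPKM in Hevin, 6589 ± 990 FPKM in LPS and 6401 ± 476 FPKM in Media (SD, n = 4 each). As a share of all recovered reads the 8 genes took 2.13% in Hevin, 1.48% in LPS and 1.78% in Media.

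**Figure D3:**
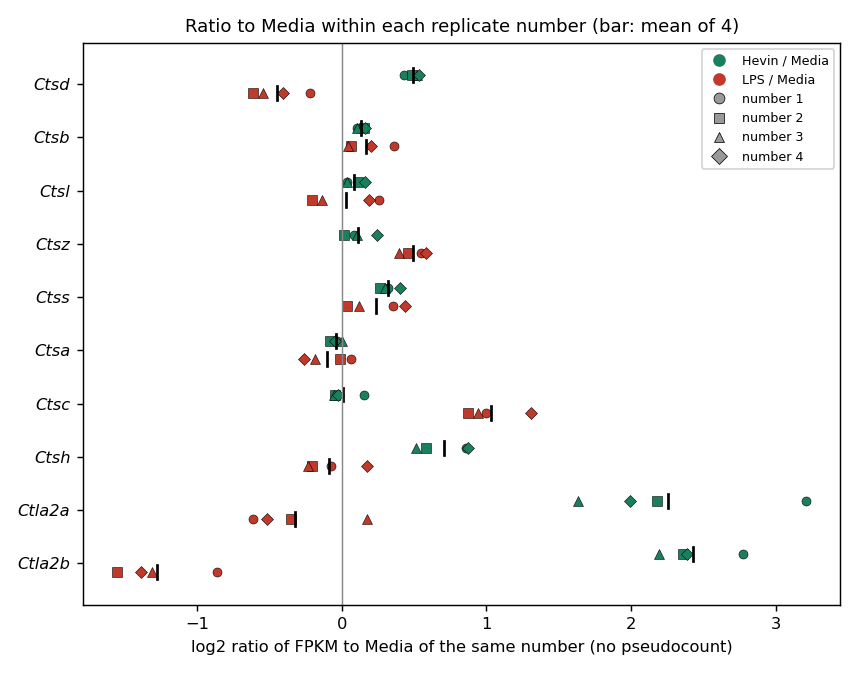
Log2 ratio of FPKM in Hevin or LPS to Media of the same library number, without pseudocount, for the 10 genes (points: numbers 1 to 4, bars: their mean). Ctsd lies above 0 in Hevin and below 0 in LPS in all 4 numbers, and Ctla2b does the same. The positive LPS values of Ctsz turn negative in the fit under quantile normalization.

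Genes around the cathepsins were drawn from lists of inhibitors, sorting factors, partners and transcription factors. Their counts stand against 7.37% of all genes called in Hevin and 25.8% in LPS, or 21.4% and 43.7% with the block. Of the 4 other cathepsin genes tested, 1 rose in Hevin and 0 changed in LPS by the limma test, and with the block 4 rose in Hevin and 0 changed in LPS. At an unadjusted p under 0.05 there were 3 in Hevin and 0 in LPS. The gene that rose was Ctsf, a cysteine cathepsin, at 14.6 ± 0.950 FPKM in Hevin and 10.6 ± 0.747 FPKM in Media (SD, n = 4 each; log2 fold change 0.42 ± 0.08, limma adjusted p = 0.00639). In LPS it averaged 10.2 ± 0.484 FPKM.

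Of 10 cystatins and stefins tested, inhibitors of cysteine cathepsins, 0 passed in either contrast with Media by limma, and 0 had an unadjusted p under 0.05. With the block 1 was lower in Hevin and 5 were higher in LPS. The most abundant was Cstb, at 869 FPKM in Hevin, 1105 FPKM in LPS and 954 FPKM in Media. The sum of 7 stefin genes was 885 FPKM in Hevin, 1329 FPKM in LPS and 1118 FPKM in Media in number 2, and 18.4 to 80.0 FPKM in all other libraries, as with the neutrophil genes. A list of other inhibitors had 7 genes tested, among them Bmp6, which encodes a growth factor and not an inhibitor. Of these 7 genes, 0 changed in Hevin by limma (0 at an unadjusted p under 0.05, and 2 lower with the block). In LPS 1 rose, and with the block 2 rose and 2 fell. The gene that passed without the block was the serpin gene Serpina3f, at 7.71 ± 2.24 FPKM in LPS and 1.02 FPKM in Media (log2 fold change 2.11 ± 0.22, limma adjusted p = 2.62e-05).

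Of 13 genes for processing and sorting of cathepsins, 1 rose in Hevin, and in LPS 1 rose and 1 fell. With the block 4 rose and 1 fell in Hevin, and 2 rose and 5 fell in LPS. Grn encodes progranulin, a lysosomal glycoprotein that binds prosaposin and cathepsin D. It averaged 599.6 ± 64.5 FPKM in Hevin, 321 ± 48.8 FPKM in LPS and 399 ± 15.8 FPKM in Media (SD, n = 4 each), with a log2 fold change of 0.58 ± 0.11 for Hevin over Media (limma adjusted p = 0.00799). Lgmn, a protease that cuts cathepsin precursors, averaged 539 FPKM in Hevin, 383 FPKM in LPS and 373 FPKM in Media, and Hevin against Media passed with the block (limma adjusted p = 0.127 without and 0.00173 with it). The uncovering enzyme gene Nagpa, which completes the mannose 6-phosphate tag, fell in LPS by 0.45 on the log2 scale (limma adjusted p = 0.00943). M6pr, a receptor for that tag, rose by 0.39 (limma adjusted p = 0.0126), but its estimate was -0.04 under quantile normalization.

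In the complex that holds Ctsa, 0 of 3 partner genes changed in Hevin by limma and 1 fell in LPS. In Hevin 2 had an unadjusted p under 0.05, and 2 rose with the block. Galns, a sulfatase gene, averaged 8.10 FPKM in LPS and 10.3 FPKM in Media (log2 fold change -0.32 ± 0.10, limma adjusted p = 0.0415), and 11 of 25 alternatives ended that call. Of 5 other lysosomal peptidase genes, 0 changed in Hevin by limma (1 at an unadjusted p under 0.05, and 1 higher with the block) and 1 fell in LPS: Prcp, at 14.7 FPKM in LPS and 20.5 FPKM in Media (log2 fold change -0.46 ± 0.09, limma adjusted p = 0.00382).

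The MiT/TFE transcription factors bind the sequence CACGTG in promoters of lysosome genes. Of their 4 genes, 1 fell in Hevin, and in LPS 1 rose and 1 fell. With the block Mitf was also higher in Hevin, at 36.2 ± 5.87 FPKM against 27.2 ± 7.16 FPKM in Media (log2 fold change 0.42, limma adjusted p = 0.00937 with and 0.296 without the block). Tfec averaged 44.7 ± 4.42 FPKM in Hevin, 183 ± 10.1 FPKM in LPS and 64.9 ± 7.04 FPKM in Media (SD, n = 4 each). It fell by 0.53 on the log2 scale in Hevin (limma adjusted p = 0.00609) and rose by 1.49 ± 0.10 in LPS (limma adjusted p = 7.14e-07). Tfeb averaged 11.3 ± 2.29 FPKM in Hevin, 3.999 ± 2.12 FPKM in LPS and 10.6 ± 1.96 FPKM in Media, and fell by 1.30 in LPS (limma adjusted p = 0.00436).

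**Figure D4:**
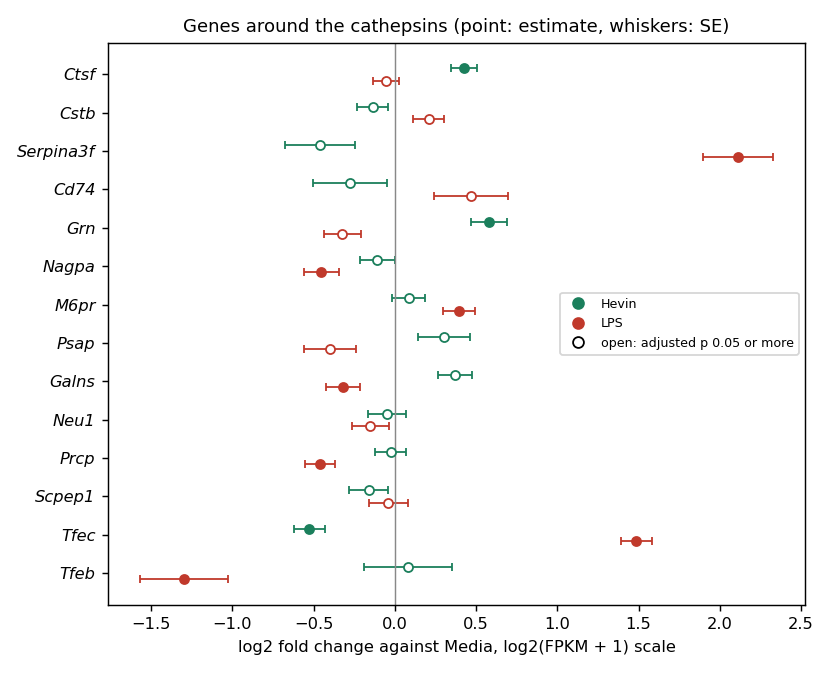
Log2 fold change against Media on the log2(FPKM + 1) scale for 14 genes around the cathepsins, as estimate with SE whiskers for Hevin and LPS. Filled points passed the limma test. Tfec is lower in Hevin and higher in LPS, and M6pr in LPS changes sign under quantile normalization.

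The promoter of Ctsd, the cathepsin with the largest FPKM differences between groups, holds that sequence at 2 places. The window is 250 bases before to 50 after the RefSeq start on GRCm38.p6, chr7:142387778-142388077, minus strand, and CACGTG is in capitals.
Ctsd promoter: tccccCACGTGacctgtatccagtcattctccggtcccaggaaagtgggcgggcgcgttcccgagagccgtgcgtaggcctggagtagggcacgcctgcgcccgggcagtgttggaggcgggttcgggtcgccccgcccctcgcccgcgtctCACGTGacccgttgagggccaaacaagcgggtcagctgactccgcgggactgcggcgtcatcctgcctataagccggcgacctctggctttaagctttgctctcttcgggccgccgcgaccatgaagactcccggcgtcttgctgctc
The first bases of the matches lie at -245 and -98 from the start. CACGTG is its own reverse complement, so a search of 1 strand covers both. The RefSeq promoters include 8 of the 10 genes, all but Ctsb and Ctsh, and 3 of these hold the motif: Ctsd, Ctsl and Ctsa. Over all 27025 genes with a RefSeq promoter 8.09% hold it. A match of letters is a description and not a bound site.

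The genes whose pattern over the 12 libraries was most like that of Ctla2a, by Pearson correlation of log2(FPKM + 1), were Prps2 (0.965), Pde4d (0.958), Isca1 (0.954), Sulf2 (0.952), Sox4 (0.948) and Creb3l2 (0.948). The phosphodiesterase gene Pde4d averaged 5.52 FPKM in Hevin, 1.49 FPKM in LPS and 1.93 FPKM in Media. Among the other members the correlation with Ctla2a was 0.889 for Ctla2b and 0.839 for Ctsh. For Ctsc the nearest genes were E2f5 (0.981), Rps6ka3 (0.980), Nrp2 (0.979), Stat5a (0.978), Sav1 (0.977) and Mmp14 (0.976), and among the members Ctsz (0.907). These values describe 12 libraries that share 3 treatments and 4 numbers, so they mostly repeat the group differences and carry no test.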

How the data were processed

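Per the labels' protocols, RNA was made into stranded poly(A) libraries and read as 2x100bp pairs. The submitters' processing notes name the build mm10 and, with no role or order, edgeR 3.30.3 with R 4.0.0, featureCounts, Subread 1.6.3, Bowtie2 2.3.5.1, and both Trimmomatic 0.39 and FastQC 0.11.7. The authors deposited FPKM values for 14541 genes. How strand and shared reads were handled, and with which annotation, is not given here.

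Groups and numbers came from the titles. FPKM steps gave whole reads in every row, within 0.1 of a whole number, and scaling factors of 0.804 to 0.897 in LPS and 1.02 to 1.16 in Hevin and Media. The test kept 11242 genes that reached 1 FPKM in 4 or more libraries, all 10 members among them. All 12 libraries went into 1 limma 3.58.1 model (R 4.3.3) of log2(FPKM + 1), whose prior spread followed the mean level, and the threshold was a Benjamini-Hochberg adjusted p of 0.05. A treatment was called not overlapping when all its libraries lay on 1 side of the other group. Read recovery was tested on simulated data.

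Members, lists and tests were chosen with earlier results of these data known. From the lists, the text names called genes with the largest change and the most abundant members; Lgmn, Mitf, Gja1, the stefin sum and the genes called under other fits were named after their values were seen. Deviations from group means had correlations between 0.230 and 0.784 in the 12 pairs of same-numbered libraries. The deposited column names join same-numbered libraries under further labels. The main fit held the group only and left this pairing out. The replicate block, which uses it, was an alternative. Where the block changes a member's call or a list's count, the result with the block is given beside it. Positions come from GENCODE M21 and promoter windows from RefSeq on GRCm38.p6. Sequences were compared with Biopython 1.88. Alternatives were other pseudocounts, filters, scalings and spread models, limma-voom on recovered reads, the replicate block and leaving out each library. Leaving out the 3 libraries of number 2 was chosen after seeing the data.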

Additional observations from a re-analysis of the deposited data

Results flagged for a closer look

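The level of Ctsc in Media library 2, 145 FPKM, stood apart from the 3 other Media libraries, at 166, 166 and 169.7 FPKM. Its gap to the nearest library was 0.843 of the range in Media, above Dixon's critical value for 4 samples at the 5% level. It was the 1 flag among 30 groups examined, the 10 genes in 3 groups. With 30 checks at the 5% level, 1 flag can arise without any true outlier. Ctsc was lowest in library 2 in Hevin and LPS too, at 141 and 266 FPKM. With Media library 2 left out, the log2 fold change of Hevin over Media was -0.04, against 0.01 with it, and neither passed the limma test.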

How the results depend on the processing

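Of 8 cathepsins, 1 was called in Hevin against Media, 2 in LPS against Media and 4 in Hevin against LPS. Counts within 1.5 times of these are taken as unchanged, and the split into higher and lower calls is given where it shifts. The counts moved in Hevin against Media to 3 with the replicate block, 3 with upper quartile scaling, 2 with quantile normalization, 2 with only both groups, 3 with limma-voom and the block and 3 without scaling factors. In LPS against Media they moved to 4 with the block (3 higher, 1 lower), 6 with quantile normalization (1 higher, 5 lower), 5 with limma-voom and the block (4 higher, 1 lower) and 5 without scaling factors (1 higher, 4 lower). They were 3 (2 higher, 1 lower) with a pseudocount of 5, with a filter of 5 FPKM and with upper quartile scaling. In Hevin against LPS 2 were higher and 2 lower, and they moved to 8 with quantile normalization (7 higher, 1 lower) and 7 without scaling factors (6 higher, 1 lower). Leaving out 1 library gave 1 to 2, 2 to 3 and 4 to 4 in these 3 contrasts, with 2 in Hevin against Media without LPS library 1. The change of Ctla2a in LPS against Media then ranged between -0.66 and 0.11, reversed without LPS library 1.

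Other log2 fold changes that reversed were small or moved with the scaling, and the cause was not tested. With upper quartile scaling these were 0.096 for Ctsb in Hevin against LPS and -0.091 for Ctsl in LPS against Media. With quantile normalization they were 0.061 for Ctsa in Hevin against Media, -0.51 for Ctsb, -0.72 for Ctsl, -0.32 for Ctss, -0.30 for Ctsz and -0.036 for M6pr in LPS against Media, and 0.81 for Ctsb and 0.57 for Ctsz in Hevin against LPS. Without scaling factors they were -0.16 for Ctsb, -0.30 for Ctsl and -0.092 for Ctss in LPS against Media and 0.32 for Ctsb in Hevin against LPS. Without the 3 libraries of number 2, Ctsl in Hevin against LPS was -0.027. Leaving out 1 library gave between -0.10 and 0.011 for Ctsa and -0.066 and 0.076 for Ctsc in Hevin against Media, between -0.14 and 0.019 for Ctsh and -0.056 and 0.11 for Ctsl in LPS against Media, and between -0.033 and 0.14 for Ctsa, -0.090 and 0.054 for Ctsb and -0.021 and 0.14 for Ctsl in Hevin against LPS.

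The calls of Ctsh in Hevin, Ctsc in LPS and Ctla2b in LPS held in all 25 alternatives. The block passed Ctsd and Ctss in both treatments. The median of all genes in LPS against Media moved to -0.12 with upper quartile scaling and -0.29 without scaling factors. Shared exon sequence limits the levels of Ctla2b and Ctsd, and read depth was over 100 reads for each gene in each library.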

Other observations

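The ratio of Ctla2b to Ctla2a, both in FPKM, was 1.92 to 2.09 in the 4 Hevin libraries. It was 2.37, 0.736, 0.466 and 0.848 in LPS libraries 1 to 4, and 2.82, 1.69, 1.31 and 1.56 in Media. The ratio was highest in number 1 in LPS and Media, where Ctla2a and the endothelial marker sum were lowest. Whether the groups differ in this ratio was not tested.

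Lists of other cell types varied by group and number. Counts of called markers stand against 7.37% of all genes in Hevin and 25.8% in LPS, or 21.4% and 43.7% with the block. The summed level of astrocyte markers was 21.9 to 47.5 FPKM in Hevin, 114 to 236 FPKM in LPS and 51.0 to 88.1 FPKM in Media. Most of it was 1 gene, the connexin gene Gja1, at 25.3 FPKM in Hevin, 174 FPKM in LPS and 60.7 FPKM in Media, which fell in Hevin and rose in LPS by limma. None of the 3 other astrocyte markers tested passed without the block, and with it 1 more was higher in LPS. Of 7 border macrophage markers, by limma 1 rose and 1 fell in Hevin, and 1 rose in LPS. With the block 2 rose and 2 fell in Hevin, and 1 rose and 2 fell in LPS. Of 4 neuron markers 0 changed in either treatment by limma, with 0 at an unadjusted p under 0.05 and 0 with the block, and of 3 oligodendrocyte markers 1 fell in LPS, or 2 with the block.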
